A study of Homo sapiens with 6 samples.

Results

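The neurotrophin system was followed through 7 genes, the receptors NTRK2, NTRK3, NGFR and SORT1 and the ligands BDNF, NTF3 and NTF4, in RNA sequencing of the LoVo human colorectal adenocarcinoma line and of LoVo-HM, described in the labels as a subline of high metastatic capacity. The genes were chosen by symbol, and all 7 were found among the 24580 rows of the expression table. Each line had 3 libraries, 6 in all. LoVo cells are labelled wildtype, LoVo-HM cells carry no engineered allele in the labels, and neither line was treated. LoVo-HM is a single subline, the labels do not say how it was derived, and nothing says that the libraries came from separate cultures, so the spread and the p-values reported here measure only differences between these libraries, which may be technical. NTRK2 was already known to differ between the lines when the genes were picked. The levels of the 7 genes in this contrast are therefore given as a description and without a test.

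Neurotrophins are secreted growth factors made as precursors that proteases trim to the mature form. NTRK2 encodes TrkB, a receptor tyrosine kinase for BDNF and for neurotrophin-4 (NTF4), and NTRK3 encodes TrkC for neurotrophin-3 (NTF3). NGFR encodes the low-affinity p75 receptor of the tumour necrosis factor receptor superfamily, which binds every neurotrophin, and SORT1 encodes sortilin, a sorting receptor that binds precursor forms together with p75. The system is best known for the survival and wiring of neurons, and Trk receptors are also found in epithelia and carcinomas.

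In LoVo the receptor NTRK2 was the most abundant of the 7 genes, and in LoVo-HM it was below 1 FPKM. It stood at 58.2 ± 2.88 FPKM (SD, n = 3) in LoVo and at 0.735 ± 0.0991 FPKM (SD, n = 3) in LoVo-HM, a mean level 79.3-fold lower. NGFR and SORT1 were lower in LoVo-HM by smaller amounts, 1.51-fold and 1.2-fold. The ligand BDNF went the other way, 8.12-fold higher in LoVo-HM, but below 0.5 FPKM in every library. NTF4 overlapped between the lines, and NTRK3 and NTF3 were at or next to 0 throughout. FPKM is the number of sequenced fragments normalized to transcript length and to the size of the library. Levels of different genes can be set side by side only roughly, as transcript forms and reads of overlapping genes were not resolved.

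Promoter sequences are shown for the pair of genes that differed most between the lines in relative terms, NTRK2 and BDNF, because both have several start sites and BDNF transcription is known to respond to the factor CREB through the cyclic AMP response element. RefSeq windows (GRCh38.p14) from 250 to 20 bases before a start site are given 5′ to 3′ on the gene's strand. Capitals mark the core of the element, TGACG or its reverse complement CGTCA, and the GC box, GGGCGG or CCGCCC. The first window lies at chr9:84669056-84669286 (plus strand) before the first NTRK2 start, the second at chr9:84670099-84670329 (plus strand) before the third NTRK2 start, and the last at chr11:27701641-27701871 (minus strand) before the fourth BDNF start.
NTRK2 start 1: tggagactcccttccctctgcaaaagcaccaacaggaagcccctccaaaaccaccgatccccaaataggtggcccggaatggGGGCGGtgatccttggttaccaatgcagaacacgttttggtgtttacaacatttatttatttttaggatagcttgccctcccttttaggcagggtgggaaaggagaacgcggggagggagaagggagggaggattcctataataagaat
NTRK2 start 3: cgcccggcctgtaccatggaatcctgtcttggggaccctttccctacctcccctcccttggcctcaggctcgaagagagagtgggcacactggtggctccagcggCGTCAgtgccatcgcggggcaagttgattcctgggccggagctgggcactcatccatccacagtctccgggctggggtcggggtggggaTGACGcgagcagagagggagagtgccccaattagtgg
BDNF start 4: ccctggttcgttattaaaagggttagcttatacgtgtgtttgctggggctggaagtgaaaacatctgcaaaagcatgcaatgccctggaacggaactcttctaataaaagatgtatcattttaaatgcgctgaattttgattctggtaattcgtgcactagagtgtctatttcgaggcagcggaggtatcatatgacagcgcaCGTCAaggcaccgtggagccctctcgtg

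The core of the element occurred 2 times before the third NTRK2 start, at 145 and 56 bases upstream, and 1 time before the fourth BDNF start, at 47 bases upstream. It was in none of the 3 other NTRK2 windows and none of the 4 other BDNF windows. Among all 35116 RefSeq windows of the same 231 bases, 19.6% held the core on either strand, 40.1% held the GC box and 1.43% held the full element TGACGTCA, which contains the core. The full element was in no NTRK2 or BDNF window. Windows were found for 6 of the 7 genes, and NGFR had none. The table gives 1 value a gene, so which start was used in either line is not known from it, and a match describes the letters only.

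NTRK2 (ENSG00000148053) lies on the plus strand of chromosome 9 at 84668551 to 85027070 (GRCh38, GENCODE 29). Its level was 55.9, 57.3 and 61.5 FPKM in the 3 LoVo libraries and 0.719, 0.841 and 0.644 FPKM in the 3 LoVo-HM libraries. Every LoVo library was far above every LoVo-HM library, and the libraries of each line lay close together. The log2 difference, LoVo-HM minus LoVo on the log2(FPKM + 1) scale, was -5.09 ± 0.0713 (SE). The size of this difference depends on the value added before taking logs, and it was -6.13 with 0.1 in place of 1. Ranked by mean FPKM among the 19974 rows with a gene symbol, NTRK2 was number 1037 in LoVo and number 12088 in LoVo-HM. In cultured cells a difference in the RNA of a whole culture does not tell fewer expressing cells from less RNA in each cell.

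**Figure D1:**
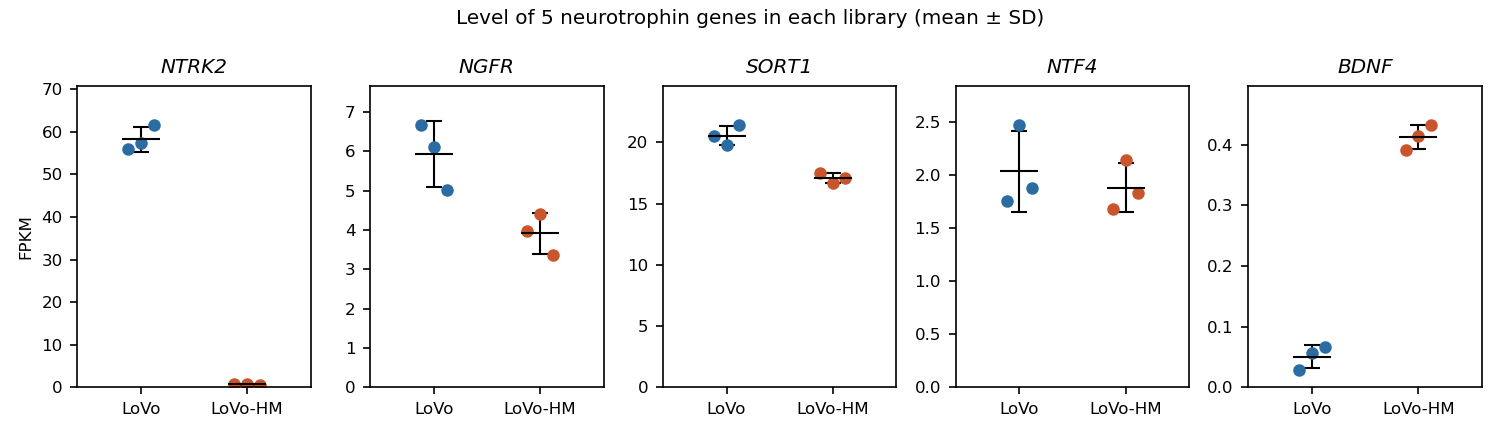
FPKM of 5 neurotrophin genes in each library of LoVo (blue) and LoVo-HM (orange), each panel with its own axis from 0, with the mean (long bar) and SD (whiskers) of 3 libraries. NTRK2 is at 58.2 FPKM on average in LoVo and 0.735 FPKM in LoVo-HM, NGFR and SORT1 are lower in each LoVo-HM library, NTF4 overlaps, and BDNF is higher in LoVo-HM on a scale below 0.5 FPKM.

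The level is for the gene as a whole, and the NTRK2 gene makes receptors with and without the kinase. GENCODE 29 lists 8 coding transcripts of NTRK2, whose proteins run from 477 to 838 residues. The longest ones carry the tyrosine kinase, and shorter forms known from brain and other tissues lack it. How the 58.2 FPKM of LoVo divided between these forms was not measured.

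NTRK3, the TrkC receptor gene, was all but missing. It (ENSG00000140538, chr15:87859751-88256768, minus strand) was listed at 0 in 5 of the 6 libraries and at 0.00585 FPKM in LoVo-HM replicate 2. NTRK2 was above NTRK3 in every library of both lines.

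NGFR, the p75 receptor (ENSG00000064300, chr17:49495293-49515017, plus strand), was at 6.66, 6.12 and 5.01 FPKM in LoVo against 3.98, 4.4 and 3.37 FPKM in LoVo-HM. The lowest LoVo library was above the highest LoVo-HM library, but by less than the range within either line. The mean was 5.93 ± 0.842 against 3.92 ± 0.519 FPKM (SD, n = 3 each), a log2 difference of -0.49 ± 0.115 (SE). Antisense genes share 22.3% and 4.87% of the exonic bases of NGFR, and their reads may be included in its level. NTRK2 exceeded NGFR by 8.4, 9.36 and 12.3 times in the LoVo libraries. In LoVo-HM the same ratio was 0.18, 0.191 and 0.191, so the order of the 2 receptors was inverted in every library.

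SORT1, which encodes sortilin (ENSG00000134243, chr1:109309568-109397951, minus strand), was at 20.5, 19.8 and 21.4 FPKM in LoVo against 17.5, 16.7 and 17.1 FPKM in LoVo-HM. The lines did not overlap, and the log2 difference was small, -0.25 ± 0.0543 (SE). SORT1 was the steadiest of the 5 genes above 0 in all libraries, with a coefficient of variation of 3.95% in LoVo and 2.3% in LoVo-HM. SORT1 went from 23.7% of the summed FPKM of the 7 genes in LoVo to 71.1% in LoVo-HM, and NTRK2 from 67.1% to 3.05%. The sum itself was 86.8 ± 2.63 FPKM (SD, n = 3) in LoVo and 24.0 ± 0.599 FPKM (SD, n = 3) in LoVo-HM.

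**Figure D2:**
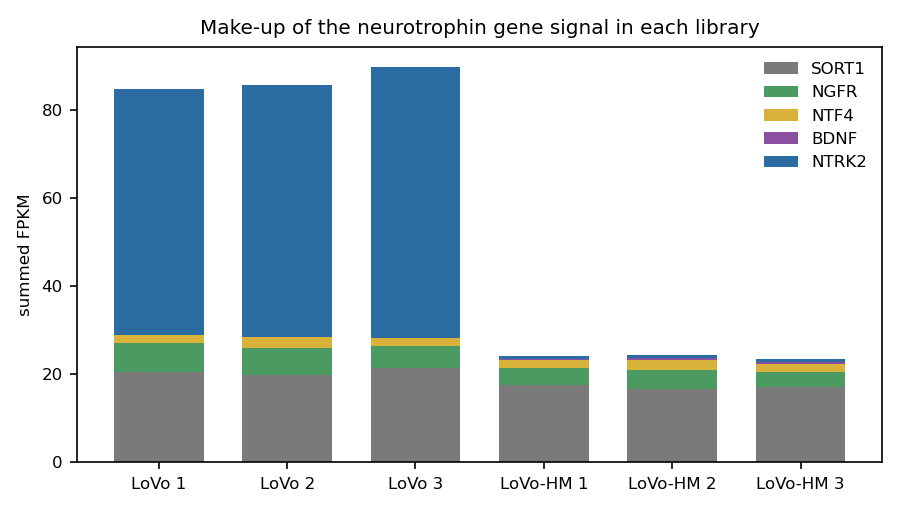
Stacked bars of the summed FPKM of SORT1, NGFR, NTF4, BDNF and NTRK2 in each of the 6 libraries. NTRK2 forms 67.1% of the mean LoVo sum and 3.05% of the mean LoVo-HM sum, and SORT1 goes from 23.7% to 71.1% of a smaller sum.

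Among the ligands, BDNF (ENSG00000176697, chr11:27654893-27722058, minus strand) was at 0.029, 0.057 and 0.0666 FPKM in LoVo against 0.392, 0.415 and 0.432 FPKM in LoVo-HM. All 3 LoVo-HM libraries were above all 3 LoVo libraries, from 0.0509 ± 0.0196 to 0.413 ± 0.0197 FPKM on average (SD, n = 3 each). The mean over all libraries was under the minimum of 0.5 FPKM, so BDNF did not enter the tested genes. Its log2 difference was 0.43 with 1 added before taking logs and 1.77 with 0.1 added. BDNF shares 701 of its 7740 exonic bases with the antisense gene BDNF-AS, whose reads cannot be told from those of BDNF where strand is not kept, and the strand setting is not given in the sources used here.

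NTF4, the other TrkB ligand (ENSG00000225950, chr19:49061066-49065054, minus strand), was at 1.76, 2.47 and 1.88 FPKM in LoVo against 1.68, 2.14 and 1.83 FPKM in LoVo-HM. The values overlapped, and the log2 difference was -0.07 ± 0.117 (SE). NTF4 shares 483 of its 1469 exonic bases with the coding gene AC008687.8 on the same strand (0.251 and 0.064 FPKM on average in LoVo and LoVo-HM), so its level is uncertain. NTF3 (chr12:5432112-5521536, plus strand) was listed at 0 in all 6 libraries. The summed level of the 3 ligand genes was 2.09 ± 0.389 FPKM in LoVo against 2.29 ± 0.243 FPKM in LoVo-HM (SD, n = 3 each), with BDNF making up 2.44% and 18.1% of it. NTRK2 exceeded that sum by 22.7 to 31.6 times in LoVo libraries and was 0.285 to 0.347 of it in LoVo-HM libraries.

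By level, the genes stood in the order NTRK2, SORT1, NGFR, NTF4 and BDNF in LoVo. In LoVo-HM the order was SORT1, NGFR, NTF4, NTRK2 and BDNF. In both lines the ranges of neighbouring genes in these orders did not overlap. Only 4 of the 7 genes passed the filter of a mean of 0.5 FPKM (NTRK2, NGFR, SORT1 and NTF4). Over the whole table, limma with Benjamini-Hochberg adjustment called 44.9% of 14487 tested genes at an adjusted p under 0.05, 21.8% higher and 23.1% lower in LoVo-HM, and 55% of the tested genes had no overlap between the lines. Of the 4 neurotrophin genes that passed the filter the lines did not overlap for 3, NTRK2, NGFR and SORT1. As the genes were picked from this contrast, nothing is read from that count.

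The libraries were alike in scale, their FPKM summing to between 434108 and 439082 for LoVo and between 424624 and 428265 for LoVo-HM, and log2(FPKM + 1) correlated at 0.995 within lines and at 0.969 to 0.97 between them. The read depth is not known. Markers of an epithelial line were present, EPCAM at 128 ± 1.99 and 51.7 ± 2.6 FPKM and KRT18 at 549 ± 11 and 859 ± 20.1 FPKM in LoVo and LoVo-HM, respectively. Of 12 colorectal markers 5 (CDX1, VIL1, CEACAM5, LGR5 and MUC2) were too low to test. The 7 tested were all called, against 44.9% of all tested genes, 5 higher and 2 lower in LoVo-HM. The lower ones were EPCAM and CDH1, the latter at 48.0 ± 1.38 and 7.91 ± 0.359 FPKM. The higher ones were KRT8, KRT18, KRT19, CDX2 and KRT20, the last at 0 in every LoVo library and 2.92 ± 0.475 FPKM in LoVo-HM. Neurons are the best known bearers of TrkB. Of 11 neuronal markers, 9 were too low to test, with SNAP25, STMN2, ELAVL4, NEFM and DCX at 0 in every library. The 2 tested, TUBB3 and SYN1, were both called higher in LoVo-HM, as were 21.8% of all tested genes. SYN1 was at 0.894 ± 0.222 and 1.88 ± 0.327 FPKM. Among those too low to test, MAP2 was at 0.0849 ± 0.00973 and 0.456 ± 0.272 FPKM without overlap, and RBFOX3 overlapped. The list's sum, nearly all of it the tubulin TUBB3, was 26.3 to 30.2 FPKM in LoVo against 69.6 to 76.6 FPKM in LoVo-HM. The summed Schwann and neural crest list was at 24.7 to 25.3 and 18.9 to 21.0 FPKM, mostly MBP and PMP22, with S100B at 0 throughout and SOX10 at 0 in LoVo. Fibroblast markers summed to 9.99 to 12.2 and 6.65 to 8.48 FPKM, mostly COL1A1 and ACTA2, endothelial markers to 0.119 to 0.154 and 0.158 to 0.303, and immune markers to 2.44 to 3.74 over both lines, nearly all CD68. PECAM1 and PTPRC were at 0 in all libraries.

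Basal and squamous epithelial markers, a group of genes of stratified epithelia, whose basal layer is known for NGFR, were all tested and went both ways, 4 of 10 higher and 6 lower. TP63, the transcription factor that defines basal cells, was at 36.0, 34.5 and 37.9 FPKM in LoVo against 0.228, 0.344 and 0.316 FPKM in LoVo-HM. The list summed to 300 to 310 FPKM in LoVo against 463 to 477 FPKM in LoVo-HM. The higher sum rested on the basal keratin KRT5, at 39.9 ± 1.32 and 395 ± 10.7 FPKM (SD, n = 3 each). The 3 other genes that rose were also keratins, KRT14, KRT15 and KRT17, of which KRT17 was at 1.12 ± 0.31 and 59.7 ± 3.71 FPKM. The genes that fell were TP63, SOX2, DSG3, ITGB4, COL17A1 and KRT6A, the last a keratin of stressed and proliferating epidermis at 151 ± 3.82 and 0.839 ± 0.588 FPKM. The part of these markers in the NTRK2 difference was not tested.

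The 5 genes whose level over the 6 libraries was closest to that of NTRK2, by the root-mean-square distance of log2(FPKM + 1), were HLA-DPB1, FXYD3, ANXA8L1, S100A14 and TP63, at distances of 0.217, 0.359, 0.492, 0.494 and 0.564. HLA-DPB1, a chain of MHC class II with close paralogs among which reads can be split, was at 62.1 ± 0.25 FPKM in LoVo against 0.43 ± 0.133 FPKM in LoVo-HM. The ion transport regulator FXYD3 was at 81.8 ± 3.72 and 0.725 ± 0.122 FPKM, and the calcium-binding protein gene S100A14 at 47.7 ± 2.49 and 1.61 ± 0.35 FPKM (SD, n = 3 each). ANXA8L1 has a near-identical copy, ANXA8, and its level of 42.3 ± 8.2 and 1.25 ± 0.261 FPKM is uncertain for that reason. With 2 lines of 3 libraries, the measure finds genes with a similar level in each line and no more.

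**Figure D3:**
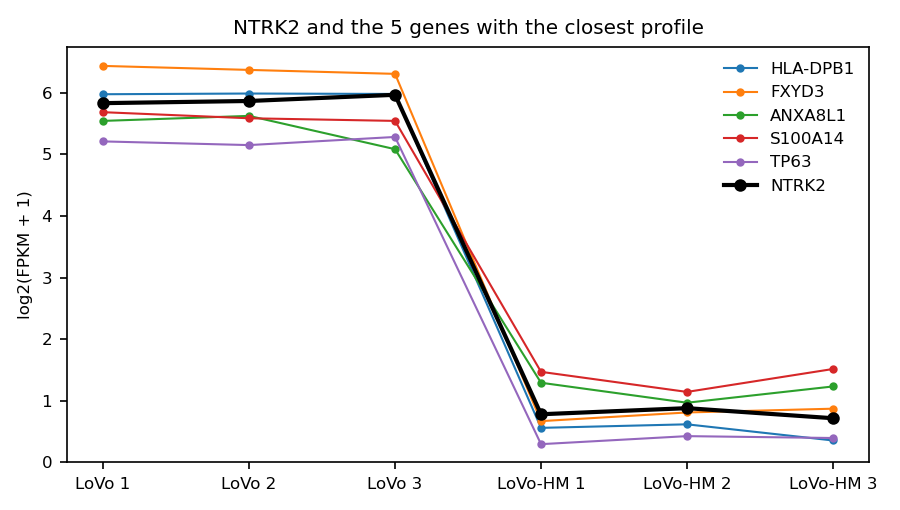
log2(FPKM + 1) in each of the 6 libraries for NTRK2 (black) and the 5 genes at the smallest root-mean-square distance from it. All 6 genes are high in the LoVo libraries and below 2 in the LoVo-HM libraries, and HLA-DPB1 is the closest at a distance of 0.217.

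The genes next to NTRK2 differed less than NTRK2, which was known to differ when it was picked. Percentiles 5 and 95 of the log2 difference of all tested genes were -0.906 and 0.635. Nearly any neighbour would therefore differ less, and nothing about the region is read from it. The nearest tested gene at lower coordinates, RMI1, a DNA repair gene (664477 bases away), was at 11.7 ± 1.51 FPKM in LoVo against 13.7 ± 0.474 FPKM in LoVo-HM (log2 difference 0.22 ± 0.0896, adjusted p = 0.0741 by limma). On the other side AGTPBP1, an enzyme that trims glutamate chains from tubulin (519469 bases away), fell from 33.6 ± 1.45 to 21.6 ± 1.0 FPKM (log2 difference -0.62 ± 0.0567, adjusted p = 4.2e-05 by limma). Of 9 tested genes within 1 Mb of NTRK2, 1 rose and 2 fell, with a median log2 difference of 0.13. Over all tested genes 21.8% rose and 23.1% fell. In the same window 12 rose and 2 fell of 38 genes around NGFR, and 28 rose and 11 fell of 73 around NTF4. Around SORT1 3 rose and 6 fell of 28, around NTF3 5 rose and 6 fell of 15, and around NTRK3 3 rose and 2 fell of 10. Around BDNF, LIN7C did not pass the test (0.11 ± 0.0755, adjusted p = 0.281 by limma) and the kinesin KIF18A rose (0.30 ± 0.0628, adjusted p = 0.00465 by limma), and of 5 tested genes within 1 Mb 1 rose and 1 fell. For NGFR the neighbours PHB (-0.02) and NXPH3 (0.06) did not pass. Of the neighbours of SORT1, PSRC1 rose (0.35) and PSMA5 did not pass (-0.09), and of those of NTF4, SNRNP70 rose (0.39) and CGB7 (-0.00) did not pass. The nearest tested genes to NTF3 were distant, the tetraspanin CD9 (678179 bases away), which fell (-1.08), and NDUFA9 (737795 bases away), which fell (-0.24). Those nearest to NTRK3 did not pass, KLHL25 (2064721 bases away, -0.12) and MRPL46 (202708 bases away, -0.05).

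The rest of the pathway was read from 8 lists, whose genes are no members of the 7. Together they hold 173 different genes, of which 142 were tested and 69 were called (48.6%, against 44.9% of all tested genes), 34 higher and 35 lower. Differences of at least 2-fold among the called genes were seen in 7.04% of the tested pathway genes and in 6.56% of all tested genes. The median log2 difference of all tested genes was 0.003. Both shares were close to those of the whole table.

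Other receptors of the system moved in both directions. Of 12 genes of this list, 5 were tested, of which 2 rose, 2 fell and RTN4R did not pass, with a median log2 difference of 0.04. SORL1, a sorting receptor of the sortilin family, was at 43.8, 42.7 and 45.7 FPKM in LoVo against 9.58, 9.19 and 9.45 FPKM in LoVo-HM, and fell by 2.11 on the log2 scale (SE 0.0523, adjusted p = 1.05e-08 by limma). TNFRSF19, a p75-related receptor that can pair with the Nogo receptor, was at 4.31, 4.83 and 4.53 FPKM in LoVo against 20.2, 20.5 and 22.1 FPKM in LoVo-HM, and rose by 1.98 (SE 0.067, adjusted p = 6.82e-08 by limma). LINGO1, a co-receptor of p75, fell from 8.9 ± 0.585 to 5.81 ± 1.19 FPKM (adjusted p = 0.00539 by limma). KIDINS220, a scaffold that binds Trk receptors and p75, rose from 7.49 ± 0.639 to 9.25 ± 0.836 FPKM (log2 difference 0.27, adjusted p = 0.0338 by limma). That call was lost without LoVo-HM replicate 2 (adjusted p = 0.0896 by limma), LoVo-HM replicate 3 (0.101), LoVo replicate 1 (0.0534) or LoVo replicate 3 (0.106). SORCS1, SORCS3 and SLITRK5 were listed at 0 throughout, and SORCS2 was at 0 in 5 of 6 libraries.

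Of 11 proneurotrophin-cutting proteases 5 were tested, and the 1 called was PLAT, tissue plasminogen activator, which activates plasmin, a protease that trims proBDNF outside the cell. It rose from 0.45 ± 0.137 to 2.61 ± 0.423 FPKM (log2 difference 1.32 ± 0.125, adjusted p = 5.12e-05 by limma). PLG, the gene of the plasmin precursor, was too low to test. It was at 0.0824, 0.189 and 0.0422 FPKM in LoVo and at 0 in every LoVo-HM library. The intracellular convertases did not pass the test, FURIN at 7.9 ± 0.328 and 7.27 ± 0.653 FPKM (adjusted p = 0.291 by limma), PCSK5 at 1.19 ± 0.238 and 0.776 ± 0.115 FPKM (0.0711) and PCSK7 at 9.74 ± 0.0983 and 8.41 ± 0.829 FPKM (0.0704). The median log2 difference of the 5 was -0.11. Without LoVo-HM replicate 2 the list had 2 calls, as PCSK7 then fell (adjusted p = 0.0399 by limma).

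Of 28 genes for adaptors and enzymes that act directly at Trk receptors 27 were tested, 11 rose, 5 fell and 11 did not pass, with a median log2 difference of 0.10. GAB2, a docking protein that recruits PI3 kinase and SHP2, was at 4.87, 4.47 and 4.6 FPKM in LoVo against 0.955, 0.922 and 0.978 FPKM in LoVo-HM (log2 difference -1.53 ± 0.0825, adjusted p = 1.35e-06 by limma), and it had the largest difference of the list. PLCG1, the phospholipase that binds the carboxy-terminal tyrosine of TrkB, rose from 12.4 ± 0.878 to 19.6 ± 1.08 FPKM (adjusted p = 0.000137 by limma), and IRS1 from 4.73 ± 0.214 to 7.86 ± 0.436 FPKM (adjusted p = 0.00016 by limma). The receptor phosphatase PTPRF fell from 42.5 ± 1.25 to 31.7 ± 1.5 FPKM (adjusted p = 0.000313 by limma). The adaptors SHC1 and FRS2, which bind the same docking tyrosine of Trk receptors, did not pass the test, at 15.8 ± 1.01 and 17.0 ± 1.35 FPKM and at 8.44 ± 0.545 and 8.21 ± 0.129 FPKM. SHC1 and FRS2 were named after their values were seen.

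In the shared MAPK and PI3K cascade all 28 genes were tested, 5 rose, 6 fell and 17 did not pass, with differences between -0.51 and 0.48 and a median of -0.07. NRAS fell from 29.7 ± 1.24 to 20.7 ± 1.93 FPKM (adjusted p = 0.000618 by limma), HRAS from 56.4 ± 2.44 to 41.1 ± 4.17 (0.00122), and the ribosomal S6 kinases RPS6KA1 and RPS6KA2 from 33.5 ± 0.118 to 23.5 ± 0.507 (4.28e-05) and from 3.21 ± 0.396 to 2.0 ± 0.269 FPKM (0.00618). The 11 calls of this list became 6 without LoVo replicate 2 and 7 without LoVo replicate 3.

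Partners of the p75 receptor and the enzymes that cut it had 24 of 28 genes tested, 4 higher, 7 lower and 13 not past the threshold, with a median of -0.10. Of the 4 too low to test, MAGED1 was at 0.669, 0.709 and 0.608 FPKM in LoVo and at 0 in every LoVo-HM library. The others, MAGEH1, NDN and SALL2, were listed at 0 throughout. ADAM10, a membrane sheddase of the family that cuts p75, was at 10.5, 11.5 and 11.3 FPKM in LoVo against 29.5, 28.7 and 31.6 FPKM in LoVo-HM (log2 difference 1.36 ± 0.061, adjusted p = 4.22e-07 by limma). ADAM17, the main p75 sheddase, did not pass the test, at 6.03 ± 0.461 and 6.32 ± 0.34 FPKM, and was named after its values were seen. MYD88, an adaptor of innate immune receptors that also joins p75 complexes, fell from 39.6 ± 5.09 to 17.8 ± 2.19 FPKM (adjusted p = 6.04e-05 by limma), the kinase RIPK2 fell from 10.3 ± 0.867 to 7.04 ± 0.585 (0.00179), and the GTPase RHOA rose from 238 ± 6.09 to 275 ± 2.05 FPKM (0.00165). The 11 calls became 7 without LoVo replicate 2.

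**Figure D4:**
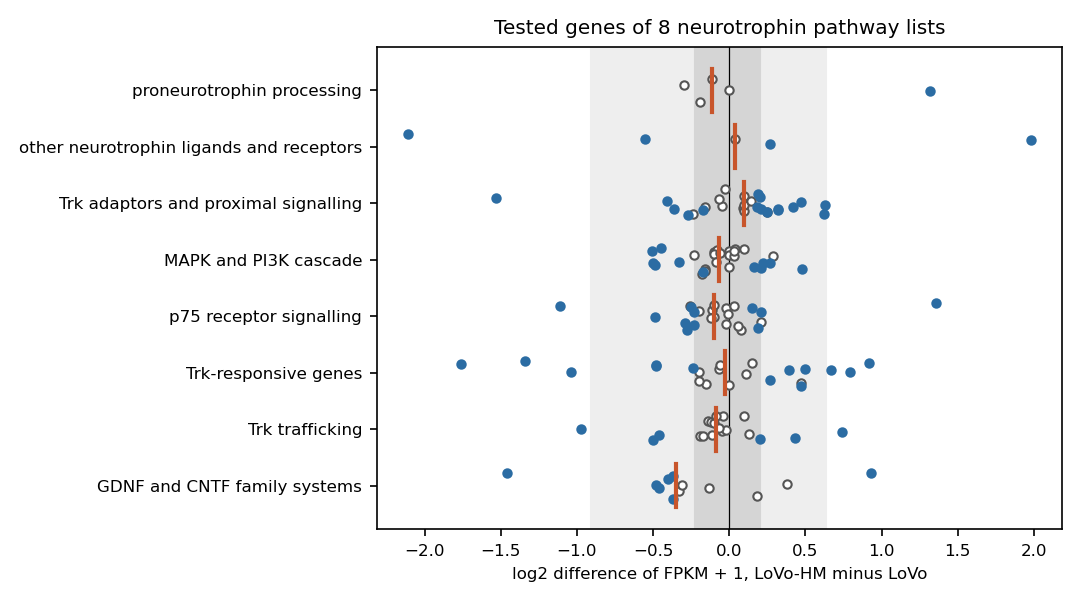
Log2 difference (LoVo-HM minus LoVo, log2(FPKM + 1) scale) of each tested gene in 8 pathway lists. Filled points passed the limma threshold, open points did not, orange bars are list medians, and grey bands hold the middle 50% and 90% of all tested genes. Points of each list fall on both sides of 0, and the largest differences are those of SORL1 (-2.11) and TNFRSF19 (1.98).

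Genes that neurotrophins induce in neurons, with feedback regulators of ERK signalling, had 22 of 26 tested, 7 higher, 6 lower and 9 not past the threshold, with a median of -0.03. IER3 fell from 123 ± 2.85 to 35.6 ± 1.7 FPKM (log2 difference -1.76 ± 0.0485, adjusted p = 1.87e-08 by limma), and JUNB, an AP-1 subunit, from 42.4 ± 1.57 to 16.2 ± 1.96 FPKM (-1.34 ± 0.0811, adjusted p = 2.85e-06 by limma). SPRY2, a feedback inhibitor of receptor tyrosine kinases, rose from 7.78 ± 0.609 to 15.7 ± 1.09 FPKM (0.92 ± 0.0765, adjusted p = 2.14e-05 by limma), and the ERK-responsive factor ETV5 from 7.34 ± 0.523 to 13.4 ± 0.715 FPKM (0.79 ± 0.072, adjusted p = 4.01e-05 by limma). EGR1 and DUSP6, chosen after their values were seen as familiar readouts of ERK, did not pass the test, at 2.02 ± 0.299 and 1.7 ± 0.0859 FPKM and at 5.33 ± 0.298 and 5.05 ± 0.376 FPKM.

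Of 20 genes for the endocytosis and transport of Trk receptors or sortilin 19 were tested, 3 rose, 3 fell and 13 did not pass, with a median of -0.09. The motor MYO6 fell from 12.4 ± 0.807 to 5.87 ± 0.963 FPKM (adjusted p = 9.7e-05 by limma), the recycling GTPase RAB11A from 28.0 ± 0.678 to 19.5 ± 0.558 (7.12e-05) and EHD4 from 10.8 ± 0.203 to 7.57 ± 0.188 (0.00031), and the endosomal adaptor APPL1 rose from 16.2 ± 0.219 to 22.3 ± 1.29 FPKM (0.000409). A list of other neurotrophic factor systems held the GDNF and CNTF families together with MANF and CDNF, which form a family of their own, and GDF15, a divergent member of the TGF-beta superfamily. Of its 20 genes 12 were tested, 6 fell, 1 rose and 5 did not pass, with a median of -0.35. The GDNF family ligand ARTN, artemin, was at 9.93, 8.96 and 8.2 FPKM in LoVo against 1.53, 4.09 and 2.73 FPKM in LoVo-HM (log2 difference -1.46 ± 0.217, adjusted p = 0.000731 by limma). MANF was lower in LoVo-HM, at 30.3 ± 1.65 against 40.3 ± 0.732 FPKM (adjusted p = 0.000369 by limma), and GDF15 was higher, at 7.62 ± 0.773 against 3.57 ± 0.887 FPKM (adjusted p = 0.000711 by limma). GDNF itself and the family co-receptors GFRA1 and GFRA4 were listed at 0 in all 6 libraries.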

How the data were processed

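LoVo and LoVo-HM gave 3 RNA libraries each, from Trizol extracts prepared by Illumina TruSeq chemistry, per the labels' protocols. The authors deposited 1 table of FPKM values. Its build is GRCh38, according to the submitters' processing notes. Its aligner, annotation, strand setting and depth were not given in the sources used here. Values below 0.3 FPKM in 441 rows showed no steps of 1 read. No count model was used. The 14487 genes averaging 0.5 FPKM or more were fitted as log2(FPKM + 1) by limma 3.58.1 (R 4.3.3; trend on; two-sided) and called at a Benjamini-Hochberg adjusted p under 0.05. On simulated data of 14487 genes, 200 of them changed, this test recovered 10% of changes of 0.25, 58% of changes of 0.5 and 98% of changes of 1 (log2).

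The 7 genes and the lists were chosen with earlier results of these data known. Named are all 7, the 4 genes of smallest p in each list, the 5 closest profiles to NTRK2, the nearest tested gene on each side of a member, and defining markers. Other marker or list genes named were chosen after their values were seen. Some genes that this rule names are not reported here. Positions, isoforms and overlaps come from GENCODE 29 and promoters from RefSeq, both GRCh38. The main fit did not pair libraries by replicate number.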

Additional observations from a re-analysis of the deposited data

How the results depend on the processing

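The NTRK2 log2 difference of -5.09 was -6.13 with 0.1 added before taking logs, -5.57 with 0.5 added and -5.63 with each library rescaled to a total of 1e+06 FPKM, which makes the added 1 count for less. It was -5.14 to -5.06 with 1 library left out. The BDNF difference of 0.43 became 1.77, 0.73 and 0.82 in the first 3 of these settings. NTF4 changed sign with quantile normalization (0.024) and without LoVo replicate 2 (0.029). Calls over all genes numbered 6508, and 5484 to 5986 with 1 library left out. Of the protease list 1 gene was called, 2 without a filter, 2 without a variance trend and 0 by limma at a minimum mean of 2 FPKM (3 tested, 1 at an unadjusted p under 0.05), and 1 to 2 with 1 library left out. The filter settings test other numbers of genes, and for the rest the cause was not tested. At a minimum mean of 2 FPKM PLAT was filtered out, and its call held in the 15 alternative settings that fitted it. The cascade list ranged over 6 to 10 calls and the p75 list over 7 to 10 with 1 library left out. Of 51 genes outside the 7 that the naming rule takes, 40 were called, and KIDINS220 lost its call in 6 settings, including no filter (adjusted p = 0.0633 by limma). PCSK5, PCSK7 and RMI1 gained one in 1 setting each. Uncalled neighbours near 0 changed sign: PHB (0.012) and CGB7 (0.013) with rescaling, CGB7 with quantile normalization (0.037), and with 1 library left out MRPL46 (-0.122 to 0.046), PHB (-0.068 to 0.007), NXPH3 (-0.027 to 0.153) and CGB7 (-0.039 to 0.018).

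With the replicate number as a block, 6459 genes were called and NTRK2 stayed at -5.09, while KIDINS220 did not pass (adjusted p = 0.0537 by limma). Deviations of same-numbered libraries correlated at -0.00701, 0.0215 and 0.0264, and not every library correlated best with its own number. No pairing was seen, but with 3 libraries a line such values cannot exclude one. The depth is unknown, so no limit can be set for genes listed at 0.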
